A study of Arabidopsis thaliana with 12 samples.

Results

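The transcript response shared by both FACT mutants of Arabidopsis thaliana was measured by treating the 3 spt16-2 libraries and the 3 ssrp1-2 libraries as a pooled group, the mean of the 2 genotype means, and setting it against the 3 Col-0 libraries. These 9 libraries are part of 12 in the series, the other 3 being of the RNA polymerase II (Pol II) mutant nrpb2-3. All samples were whole seedlings taken 12 days after germination, from seeds kept 4 days at 4 °C and then grown on soil in long days at 21 °C, and every genotype is labelled by its allele alone, with Col-0 as the control. The mutants spt16-2 and ssrp1-2 carry alleles of the genes for the larger and the smaller subunit of FACT, each a single allele of its gene, and nrpb2-3 carries an allele of the gene for the second-largest Pol II subunit. All 32833 genes of the count table were considered, and 20471 had enough counts to be tested. Whether replicates came from separate sowings is not stated in the labels, and every p-value therefore reflects how far these samples scatter, which could be technical scatter.

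FACT is a histone chaperone made of SPT16 and SSRP1. It loosens nucleosomes in front of transcribing Pol II and helps to rebuild them behind it, and it is found along the bodies of active genes. Arabidopsis plants with reduced FACT are known to bolt early and to have altered leaf and inflorescence architecture. By its title the series deals with the recruitment of FACT and with the histone variant H2A.Z in transcription, and the pooled comparison asks which transcripts respond when either subunit is impaired.

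Each library held 39483328 to 43434901 counts. Levels are given as CPM, a gene's count scaled to library depth with TMM factors. Fold changes are given on the log2 scale with their SE, and they and the adjusted p-values of genes come from the quasi-likelihood fit of edgeR. A gene was called at an adjusted p under 0.05. Col-0 replicate 1 stood apart, with 1.23% of its counts in rRNA genes against 0.225% to 0.468% in the other 8 libraries of these genotypes, and with 67.8 on the first principal component of the 9 libraries (25.2% of the variance), where Col-0 replicates 2 and 3 lay at 30.6 and 14.5 and the 6 FACT libraries at −23.3 to −14.7. The second component (21.7%) set replicate 2 of every genotype, at −43.7 to −29.0, apart from replicates 1 and 3, at 3.2 to 28.8. Genes of photosynthesis, which mark green tissue, took 17.1% to 21.7% of all counts in the FACT libraries and 19.9% to 22.7% in Col-0.

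The mutated genes were read first. Transcripts of SPT16 (AT4G10710) stood at 27.8, 55.4 and 30.0 CPM in spt16-2, at 77.6, 86.4 and 78.3 CPM in ssrp1-2 and at 44.9, 62.0 and 54.6 CPM in Col-0. Replicates 1 and 3 of spt16-2 lay below every Col-0 library, and spt16-2 replicate 2 lay within the Col-0 range. Replicate 2 was also the highest library at this gene in ssrp1-2 and in Col-0. At AT2G18193, AT5G60250 and ERD2, called between the mutants below, spt16-2 replicate 2 stood above all ssrp1-2 and Col-0 libraries, as the other spt16-2 libraries did. These genes were called with that library in the fit, so its level there partly restates the calls and is no separate support. Whether spt16-2 replicate 2 is what its label says was not tested. Because the mutants lie on opposite sides of Col-0, the pooled value was close to 0 (log2 fold change 0.04 ± 0.19, adjusted p = 0.97). Transcripts of SSRP1 (AT3G28730) stood at 49.8, 57.1 and 49.1 CPM in spt16-2, at 20.7, 19.7 and 17.9 CPM in ssrp1-2 and at 38.9, 48.4 and 44.2 CPM in Col-0. All ssrp1-2 libraries lay below the Col-0 range and all spt16-2 libraries lay above it, so the mutants lie on opposite sides of Col-0 here too. The pooled call of SSRP1 as lower (log2 fold change −0.46 ± 0.10, adjusted p = 0.047) thus describes a mean of genotypes that differ at this gene, and it was lost in 12 of 20 alternatives (adjusted p up to 0.83). The gene overlaps AT3G28740, so part of its counts may belong to that neighbour.

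Of the 20471 tested genes, 97 were higher in the FACT mutants than in Col-0 (0.474%) and 26 were lower (0.127%), 123 in all (0.601%), and 2219 had an unadjusted p under 0.05. With library totals in place of TMM the split was 86 higher and 8 lower, and DESeq2 called 262 higher and 123 lower. A change of at least 2-fold was reached by 79 of the higher genes (0.386% of those tested) and by 9 of the lower genes (0.0440%). In 96 of the higher and 25 of the lower genes all 6 FACT libraries lay on the same side of all 3 Col-0 libraries, against 3.57% and 2.47% of all tested genes. The exceptions were AT2G18193 and SSRP1. The calls rest on these same libraries, so this separation partly restates them and is no separate support. The counts depend on single libraries: without Col-0 replicate 1 they were 39 higher and 6 lower, without Col-0 replicate 2 they were 42 and 12, and without spt16-2 replicate 1 they were 54 and 9. Leaving out ssrp1-2 replicate 3, spt16-2 replicate 2 or Col-0 replicate 3 gave 61 or 62 higher genes. Without both Col-0 replicate 1 and spt16-2 replicate 2, 19 were higher and 4 lower. The called genes kept their direction in each of these fits in which they were tested.

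The genes that rose had low levels in the wild type. Their median Col-0 level was 0.622 CPM, against 11.1 CPM over all tested genes, and 60 of the 97 had a Col-0 mean under 1 CPM (61.9%, against 15.1% of all tested genes). No Col-0 library held a count of 4 of them. The genes that fell started from a median of 19.9 CPM in Col-0, and none of the 26 was under 1 CPM there. A gene with almost no Col-0 count passes the filter on low counts only through libraries where it is high, so it could be called higher and hardly lower. The share under 1 CPM therefore partly restates that filter.

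**Figure D1:**
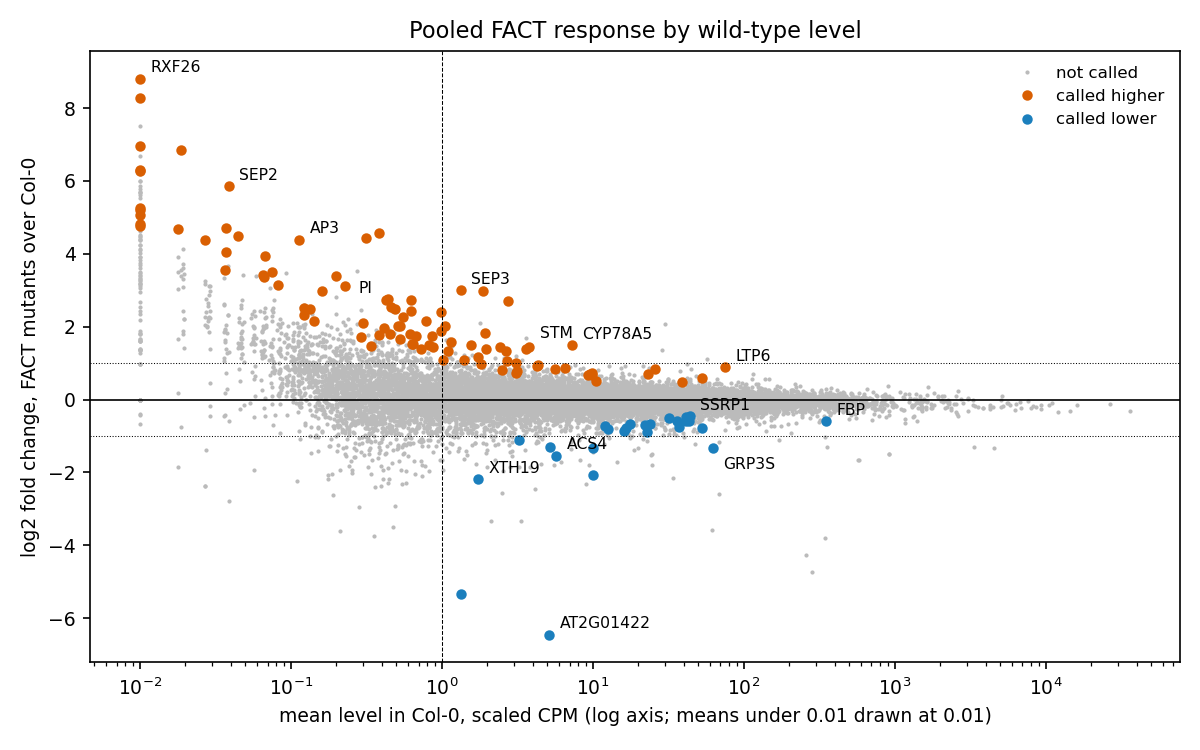
Each point is a tested gene, with its mean level in the 3 Col-0 libraries (scaled CPM, log axis) against its pooled log2 fold change, FACT mutants over Col-0. The 97 genes called higher lie mostly left of the dashed line at 1 CPM and the 26 called lower lie right of it. Dotted lines mark a 2-fold change, and fitted values of genes with no Col-0 count depend on the prior count of the fit.

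**Figure D2:**
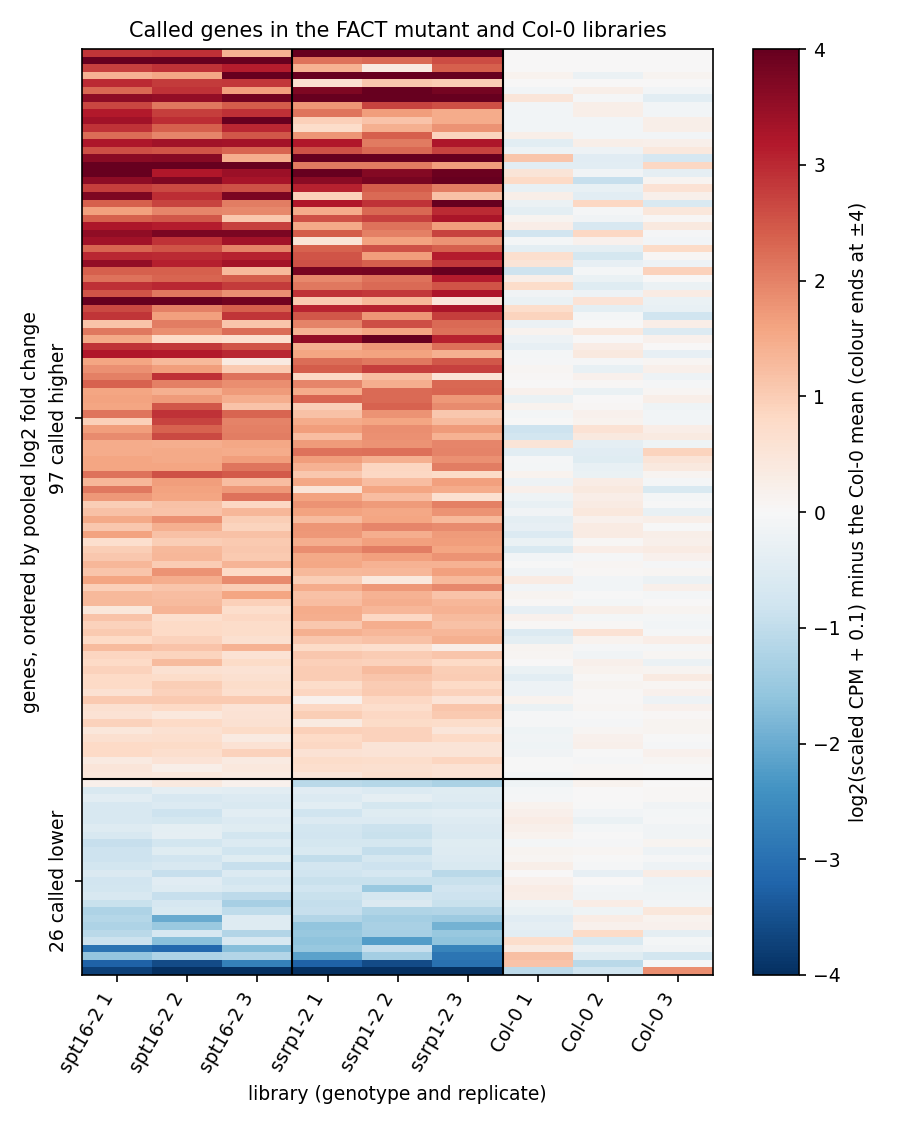
Rows are the 123 called genes ordered by pooled log2 fold change, and columns are the 3 spt16-2, 3 ssrp1-2 and 3 Col-0 libraries. Colour gives log2(scaled CPM + 0.1) minus the mean of that measure in Col-0. In nearly every row both mutants lie on the same side of Col-0, which the pooled call favours. The depth of colour can differ. By edgeR's test between the mutants, 48 of the 123 genes (39.0%) had an unadjusted p under 0.05, against 3.02% of all tested genes. The pooled test uses the same estimate of each gene's spread, so this share partly restates the choice of genes.

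Floral organ identity genes formed the group with the highest median. These MADS-box factors act in combinations to specify the organs of the flower, and the SEPALLATA (SEP) factors are their shared partners. Of 16 tested members of a list of 20 floral organ and floral meristem genes, 7 rose and 0 fell, against 0.474% of all tested genes called higher, and the list's median log2 fold change was 1.93 against 0.00 for all tested genes. All 6 FACT libraries lay above all 3 Col-0 libraries in 8 of the 16, against 3.57% of all tested genes. This list and every other list used here were chosen with earlier results of these data known. Their shares and medians therefore describe the members and give no independent support. The summed level of the 20 genes was 62.4 to 68.3 CPM in spt16-2 and 61.5 to 71.9 CPM in ssrp1-2, against 30.8 to 38.0 CPM in Col-0. In whole seedlings a change in the number of cells that express a gene and a change in RNA per cell cannot be told apart.

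SEP2 (AT3G02310) had 1.5, 1.42 and 1.85 CPM in spt16-2 and 2.94, 2.71 and 4.99 CPM in ssrp1-2, against 0.0878, 0.0289 and 0 CPM in Col-0 (log2 fold change 5.86 ± 0.63, adjusted p = 0.00091). SEP3 (AT1G24260), which can by itself bring other floral factors into complexes, had 15.8, 11.8 and 14.0 CPM in spt16-2 and 7.95, 7.12 and 9.73 CPM in ssrp1-2, against 1.9, 1.01 and 1.1 CPM in Col-0 (log2 fold change 3.0 ± 0.27, adjusted p = 0.00027). In both genes the lowest FACT library was more than 3 times the highest Col-0 library. AP3 (AT3G54340) and PI (AT5G20240) encode the paired B-class factors that specify petals and stamens. AP3 had 2.19, 2.43 and 1.77 CPM in spt16-2 and 2.2, 2.57 and 3.6 CPM in ssrp1-2, against 0.234, 0 and 0.107 CPM in Col-0 (log2 fold change 4.39 ± 0.55, adjusted p = 0.0032). PI had 3.71, 3.92 and 3.35 CPM in spt16-2 and 2.07, 2.3 and 2.8 CPM in ssrp1-2, against 0.731, 0.260 and 0.322 CPM in Col-0 (log2 fold change 2.75 ± 0.38, adjusted p = 0.005). The B-class partners thus rose in both mutants, to levels of 1.77 to 3.92 CPM, with no overlap with Col-0. These 4 genes kept their call in every alternative.

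The other called members, named after their values were seen, were AP1 (AT1G69120), FUL (AT5G60910) and SEP1 (AT5G15800). AP1, which marks the young floral meristem, had 2.22, 1.99 and 1.23 CPM in spt16-2 and 3.35, 4.35 and 4.23 CPM in ssrp1-2, against 0.585, 0.433 and 0.645 CPM in Col-0 (log2 fold change 2.27 ± 0.32, adjusted p = 0.0056). FUL, a close relative of AP1 that also acts in leaves and fruits, had 5.18, 6.25 and 5.14 CPM in spt16-2 and 7.16, 7.72 and 8.69 CPM in ssrp1-2, against 2.22, 2.31 and 2.74 CPM in Col-0 (log2 fold change 1.44 ± 0.20, adjusted p = 0.005). SEP1 averaged 4.73 ± 0.646 CPM in spt16-2, 2.41 ± 0.687 CPM in ssrp1-2 and 0.622 ± 0.156 CPM in Col-0 (SD, n = 3 each, log2 fold change 2.43 ± 0.38, adjusted p = 0.0093), and it overlaps the tested gene AT5G15790. No call held for these 3 genes without both Col-0 replicate 1 and spt16-2 replicate 2 (adjusted p = 0.085, 0.085 and 0.16), and SEP1 was also lost without Col-0 replicate 1 alone. Among members not called, LFY (AT5G61850), an activator of AP1, had 1.82 ± 0.66 (adjusted p = 0.31) and CRC (AT1G69180), which acts in carpels and nectaries, had 1.94 ± 0.52 (adjusted p = 0.14). The C-class gene AG (AT4G18960) stood at 2.12, 2.04 and 2.2 CPM in spt16-2 and 1.93, 1.81 and 2.54 CPM in ssrp1-2, against 1.93, 0.808 and 1.83 CPM in Col-0 (log2 fold change 0.47 ± 0.39, adjusted p = 0.73). Of 4 untested members, the ovule genes SHP2 and STK and the genes SUP and SPL, no library of these genotypes held more than 8 counts.

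**Figure D3:**
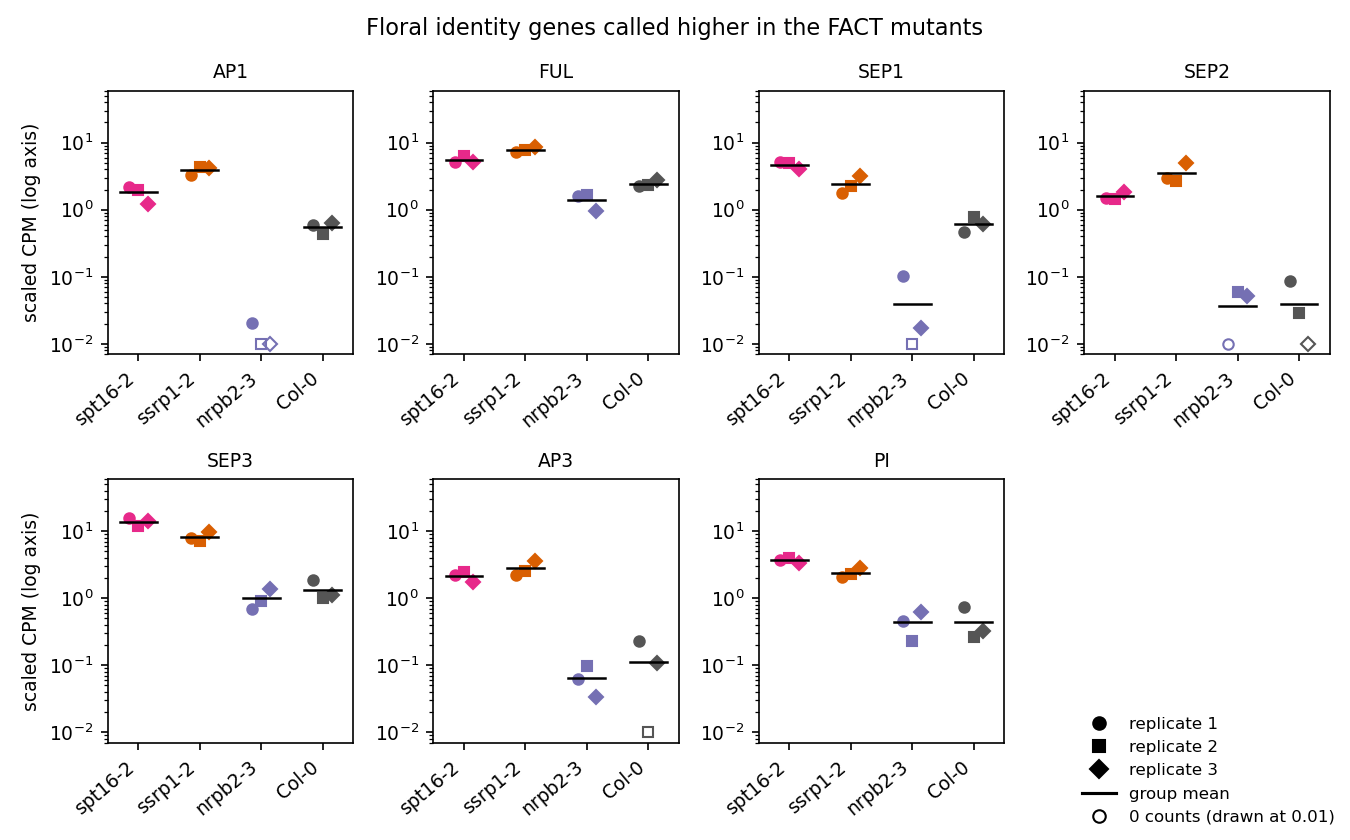
Scaled CPM (log axis) of the 7 called floral identity genes in each library, in the order spt16-2, ssrp1-2, nrpb2-3 and Col-0, with black lines at group means and open symbols for libraries with 0 counts. In each of the 7 genes all 6 FACT libraries lie above all Col-0 libraries, and no nrpb2-3 library lies above the highest Col-0 library.

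Called genes outside the lists, picked singly after their values were seen, included HB51 (AT5G03790), HB-3 (AT2G33880), REM1 (AT4G31610), FOP1 (AT5G53390) and ERF12 (AT1G28360). HB51, also known as LATE MERISTEM IDENTITY1, an activator of the step to floral meristems, had 1.46 ± 0.30 on the log2 scale (adjusted p = 0.048). HB-3, a WOX-family homeobox gene needed for growth of the vegetative shoot meristem, had 3.93 ± 0.77 (adjusted p = 0.036), and REM1, a B3-domain gene of reproductive meristems that overlaps the tested gene AT4G31615, had 2.1 ± 0.37 (adjusted p = 0.021). FOP1, a wax ester synthase gene of petals, had 3.55 ± 0.74 (adjusted p = 0.049). ERF12, an AP2/ERF repressor that takes part in floral meristem identity, averaged 2.63 ± 0.351 CPM in spt16-2 and 2.96 ± 0.213 CPM in ssrp1-2 against 1.1 ± 0.0555 CPM in Col-0 (SD, n = 3 each, log2 fold change 1.34 ± 0.20, adjusted p = 0.008). The call of ERF12 was lost only without both doubted libraries, Col-0 replicate 1 and spt16-2 replicate 2 (adjusted p = 0.085). The calls of HB51, HB-3, REM1 and FOP1 were lost without each of several single libraries, Col-0 replicate 1 among them.

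Upstream regulators of flowering were described with 2 lists. In a list of 19 promoters of flowering, 1 of 16 tested members rose, against 0.474% of all tested genes, and the median was 0.30. The called member, SPL9 (AT2G42200), a target of miR156 that acts in the age pathway, had 14.8, 13.3 and 14.9 CPM in spt16-2 and 19.6, 17.65 and 20.4 CPM in ssrp1-2, against 9.48, 9.9 and 10.3 CPM in Col-0 (log2 fold change 0.74 ± 0.11, adjusted p = 0.0076). Its call was lost without both Col-0 replicate 1 and spt16-2 replicate 2 (adjusted p = 0.068). The mobile florigen gene FT (AT1G65480) had 2.37, 2.28 and 4.31 CPM in spt16-2 and 3.18, 2.79 and 5.9 CPM in ssrp1-2, against 2.96, 1.76 and 4.03 CPM in Col-0 (log2 fold change 0.24 ± 0.40, adjusted p = 0.9). The groups overlap at FT, and replicate 3 was the highest of its genotype in each of the 3 genotypes. AGL24 (AT4G24540), a promoter of flowering, had −0.44 ± 0.11 (adjusted p = 0.12), with spt16-2 replicate 2 inside the Col-0 range. Of 16 floral repressors, 0 were called by edgeR over all genes and 4 were lower at an unadjusted p under 0.05, against 4.84% of all tested genes. Their median was −0.40, 13 of the 16 had values below 0, and in 3 all FACT libraries lay below all Col-0 libraries, against 2.47% of all tested genes. SNZ (AT2G39250), an AP2-like repressor, had −0.51 ± 0.12 (adjusted p = 0.078) and MAF3 (AT5G65060), a relative of FLC, had −0.63 ± 0.16 (adjusted p = 0.12). FLC (AT5G10140) itself was near silent, at 0.155, 0.343 and 0.241 CPM in spt16-2 and 0.381, 0.328 and 0 CPM in ssrp1-2, against 0.0585, 1.01 and 0.618 CPM in Col-0, and these ranges overlap (−1.22 ± 0.71, adjusted p = 0.59). The median of the repressors was −0.12 without Col-0 replicate 1.

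Genes of the shoot meristem and of organ boundaries were the second group with a high median, 0.84 over 14 tested members of 16, of which 2 rose and 0 fell, against 0.474% of all tested genes called higher. In 7 of the 14 all FACT libraries lay above all Col-0 libraries, against 3.57% of all tested genes. STM (AT1G62360), the KNOX homeobox gene that keeps meristem cells undifferentiated, had 7.3, 9.17 and 7.72 CPM in spt16-2 and 13.6, 15.4 and 11.2 CPM in ssrp1-2, against 2.37, 4.39 and 4.62 CPM in Col-0 (log2 fold change 1.45 ± 0.20, adjusted p = 0.005). CUC2 (AT5G53950), a NAC gene that separates organs at their boundaries, had 1.34, 1.54 and 1.21 CPM in spt16-2 and 2.42, 2.3 and 2.85 CPM in ssrp1-2, against 0.497, 0.808 and 0.618 CPM in Col-0 (log2 fold change 1.53 ± 0.26, adjusted p = 0.017). All ssrp1-2 libraries lay above all spt16-2 libraries in both genes, a difference between the mutants that did not pass the test (adjusted p = 0.66 for STM and 0.88 for CUC2). STM held its call in every alternative, and CUC2 lost it without Col-0 replicate 1 (adjusted p up to 0.18 over its alternatives) and without Col-0 replicate 3.

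Related KNOX and CUC members had values of the same sign and did not pass edgeR's test over all genes. KNAT6 (AT1G23380), which acts with STM, had 2.3, 4.44 and 2.38 CPM in spt16-2 and 2.8, 4.24 and 3.38 CPM in ssrp1-2, against 0.614, 1.24 and 1.64 CPM in Col-0 (log2 fold change 1.47 ± 0.32, adjusted p = 0.058). KNAT1 (AT4G08150) had 1.14 ± 0.32 (adjusted p = 0.19) and CUC1 (AT3G15170) had 1.39 ± 0.58 (adjusted p = 0.39). KNAT6 was called in 3 of its 20 alternatives, with an adjusted p from 0.00066 (DESeq2) to 0.28, and KNAT1 in 2, with an adjusted p from 0.018 (DESeq2) to 0.61. The stem cell genes WUS and CLV3 were too low to test, with at most 4 counts in any library of these genotypes. Outside the list and named after its values were seen, CYP78A5 (AT1G13710), a cytochrome P450 that promotes organ growth from the meristem edge, had 15.1, 19.0 and 13.3 CPM in spt16-2 and 24.2, 28.1 and 26.6 CPM in ssrp1-2, against 5.71, 8.89 and 7.09 CPM in Col-0 (log2 fold change 1.5 ± 0.16, adjusted p = 0.00091). The lowest FACT library was above the highest Col-0 library, and the call held in every alternative. The growth-regulating factor GRF8 (AT4G24150, 1.8 ± 0.36, adjusted p = 0.044) and DPA4 (AT5G06250, 1.1 ± 0.20, adjusted p = 0.026), a B3-domain repressor of leaf margin outgrowth, were also called, and both lost the call without each Col-0 library in turn.

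DNA damage response genes gave 2 called members of 14 tested, both higher, against 0.474% of all tested genes, and a median of 0.29. GMI1 (AT5G24280), a gene named for its induction by gamma irradiation, had 7.02, 11.9 and 7.8 CPM in spt16-2 and 4.38, 6.65 and 4.94 CPM in ssrp1-2, against 1.05, 2.4 and 2.36 CPM in Col-0 (log2 fold change 1.82 ± 0.26, adjusted p = 0.0069), and held its call in every alternative. NAC044 (AT3G01600), a NAC factor of the damage-induced cell cycle arrest, had 4.2, 5.54 and 5.2 CPM in spt16-2 and 1.91, 1.61 and 1.54 CPM in ssrp1-2, against 0.966, 0.693 and 0.940 CPM in Col-0 (log2 fold change 1.74 ± 0.21, adjusted p = 0.0026). Its rise was larger in spt16-2, where it also passed the test against ssrp1-2 (log2 fold change 1.56 ± 0.22, adjusted p = 0.016), and the pooled call was lost with the 6 FACT libraries as a single level (adjusted p = 0.091). The summed level of the 15 listed genes was 206.5 to 227 CPM in spt16-2, 153 to 166 CPM in ssrp1-2 and 142 to 172 CPM in Col-0, so the sum set spt16-2 apart and not ssrp1-2. NAC085 (AT5G14490), the closest relative of NAC044, was not called (1.65 ± 0.85, adjusted p = 0.51). DMC1 (AT3G22880), the meiotic recombinase, was called outside the list (0.68 ± 0.13, adjusted p = 0.036), and its call was lost without each of the 9 libraries in turn.

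Genes of protein folding and sugar transport completed the called list members. HSP18.2 (AT5G59720), a cytosolic small heat shock protein gene, had 6.71, 6.38 and 8.09 CPM in spt16-2 and 6.04, 7.09 and 5.95 CPM in ssrp1-2, against 2.84, 2.6 and 2.52 CPM in Col-0 (log2 fold change 1.34 ± 0.17, adjusted p = 0.0035). It was the only one of 12 tested heat shock genes that was called, against 0.474% of all tested genes called higher, and the list's median of 0.28 was 0.08 without Col-0 replicate 3, 0.55 without Col-0 replicate 1 and 0.65 without both doubted libraries. Outside the list the cytosolic chaperone gene Hsp70-2 (AT5G02490), named after its values were seen, had 45.1, 51.4 and 42.4 CPM in spt16-2 and 42.4, 51.7 and 45.1 CPM in ssrp1-2, against 22.5, 28.0 and 27.0 CPM in Col-0 (log2 fold change 0.84 ± 0.11, adjusted p = 0.0039). Both genes had nearly the same fold change in each mutant and held the call in every alternative. SWEET10 (AT5G50790), a sugar efflux carrier gene induced at the floral transition, had 4.41, 3.48 and 3.08 CPM in spt16-2 and 3.35, 2.3 and 4.28 CPM in ssrp1-2, against 0.790, 0.808 and 0.752 CPM in Col-0 (log2 fold change 2.15 ± 0.26, adjusted p = 0.003), also with no call lost. SWEET10 was the 1 called member of 5 tested in its list of 10, with floral terpene genes, against 0.474% of all tested genes called higher. The list's median was 0.02 (0.54 in ssrp1-2 and −0.50 in spt16-2), with 3 members above 0 and 2 below. The terpene synthase gene AT5G44630 was not called (2.34 ± 0.59, adjusted p = 0.12). Its neighbour CYP706A3 (AT5G44620), a P450 of floral terpene metabolism, was called outside the list (1.39 ± 0.29, adjusted p = 0.048). CYP706A3 lost the call without each of the 9 libraries in turn.

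The largest rises were in genes with almost no Col-0 transcript. RXF26 (AT1G58430), a GDSL lipase gene, had 0.619, 0.662 and 0.161 CPM in spt16-2 and 3.21, 2.46 and 5.7 CPM in ssrp1-2, against 0 counts in all Col-0 libraries. It was at least 75.5-fold higher in the FACT mutants, against a floor of 3 counts over the Col-0 group (adjusted p = 0.008). AT4G18900, a WD40-repeat gene, also had 0 counts in Col-0 and was at least 45.7-fold higher, with 1.91, 1.72 and 2.84 CPM in spt16-2 and 0.354, 0.383 and 0.504 CPM in ssrp1-2 (adjusted p = 0.0026). The order of the mutants differs between these genes: ssrp1-2 was higher at RXF26 and spt16-2 was higher at AT4G18900. The 2 other genes with no Col-0 count were AT1G30170 (at least 15.5-fold) and SRO3 (AT1G70440, at least 12.9-fold), and each overlaps a tested gene. AT1G75945, an uncharacterized gene, had 875 counts in the FACT libraries and 2 in Col-0, a ratio of 202 (95% counting interval 55.7 to 1670). Its levels were 0.206, 0.245 and 2.36 CPM in spt16-2 and 5.44, 6.7 and 8.16 CPM in ssrp1-2, so most of these counts came from ssrp1-2. MLP328 (AT2G01520), a major latex protein-like gene, had a ratio of 126 (22.5 to 5010, 274 counts against 1). How reads that match several genes were counted is not given in the sources used here, so values of genes with close relatives, such as AT4G18900 and MLP328, are uncertain to that extent.

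Further genes of the 10 with the largest rises had measurable Col-0 levels. AT5G22430, a pollen Ole e 1-like protein gene, had 4.98, 5.0 and 1.02 CPM in spt16-2 and 18.8, 14.9 and 32.7 CPM in ssrp1-2, against 0.790, 0.202 and 0.161 CPM in Col-0 (log2 fold change 4.56 ± 0.73, adjusted p = 0.028). The non-coding RNA gene AT1G67105 had 8.85, 3.63 and 4.15 CPM in spt16-2 and 13.9, 5.01 and 6.0 CPM in ssrp1-2, against 0.468, 0.260 and 0.215 CPM in Col-0 (log2 fold change 4.43 ± 0.60, adjusted p = 0.012). AT5G45095, uncharacterized, had 3.04, 3.56 and 3.59 CPM in spt16-2 and 1.33, 0.985 and 1.66 CPM in ssrp1-2, against 0.0585, 0.375 and 0.161 CPM in Col-0 (log2 fold change 3.4 ± 0.42, adjusted p = 0.0032). No FACT library overlapped Col-0 in any of the 3, which the rule for naming them required. AT5G53230 had 4.5 ± 0.71 (adjusted p = 0.0093) and AT3G54730, annotated as a transcription repressor, had 3.13 ± 0.55 (adjusted p = 0.019). AT5G53230 shares its domain of unknown function, DUF295, with the called genes AT1G30170 and AT2G45940. AT5G45095 and AT4G18900 held their call in every alternative. The call was lost without Col-0 replicate 1 for AT1G75945, MLP328, AT5G22430, AT1G67105 and AT5G53230 and without Col-0 replicates 2 or 3 for AT3G54730, and RXF26 lost it only with the FACT libraries as a single level or without both doubted libraries.

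A further 3 genes were named because their call held in every alternative, after their values were seen. AT3G28500, an acidic protein of the large ribosomal subunit, had 16.7, 10.8 and 13.9 CPM in spt16-2 and 22.1, 22.4 and 25.7 CPM in ssrp1-2, against 4.24, 1.93 and 2.1 CPM in Col-0 (log2 fold change 2.71 ± 0.28, adjusted p = 0.00091). AT1G02190, a fatty acid hydroxylase-family gene, had 4.02, 2.97 and 2.44 CPM in spt16-2 and 5.17, 5.01 and 6.7 CPM in ssrp1-2, against 0.556, 0.519 and 0.806 CPM in Col-0 (log2 fold change 2.74 ± 0.29, adjusted p = 0.00091). NAT7 (AT1G60030), a nucleobase-ascorbate transporter gene, averaged 2.2 ± 0.291 CPM in spt16-2, 2.55 ± 0.171 CPM in ssrp1-2 and 0.868 ± 0.0486 CPM in Col-0 (SD, n = 3 each, log2 fold change 1.44 ± 0.20, adjusted p = 0.0056). In each of the 3 genes the mutants stood clear of Col-0 on the same side. Other called genes, picked singly after their values were seen and with no list behind them, lost their calls without each of several single libraries. chr31 (AT1G05490), a SNF2-type remodeller of RNA-directed DNA methylation also known as CLSY3, had 1.96 ± 0.39 (adjusted p = 0.038), and AGO9 (AT5G21150), an Argonaute of the germ line, had 2.02 ± 0.41 (adjusted p = 0.044). The adjacent RNA-dependent RNA polymerase genes AT2G19910 (1.0 ± 0.19, adjusted p = 0.034) and AT2G19920 (1.17 ± 0.23, adjusted p = 0.035) rose together, and as close relatives they may share reads. Abundant genes rarely appear among the 97. LTP6 (AT3G08770), a lipid transfer protein gene of the epidermis, was the highest of them, at 141, 115 and 112 CPM in spt16-2 and 150.5, 179.7 and 149 CPM in ssrp1-2, against 62.8, 81.9 and 81.3 CPM in Col-0 (log2 fold change 0.89 ± 0.14, adjusted p = 0.011), a call lost without Col-0 replicate 1.

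Genes that fell changed by smaller steps, and 17 of the 26 changed by less than 2-fold. The non-coding RNA gene AT2G01422 had 0.155, 0 and 0.107 CPM in spt16-2 and 0.0272, 0.0547 and 0.0252 CPM in ssrp1-2, against 1.52, 1.85 and 12.0 CPM in Col-0 (log2 fold change −6.45 ± 0.78, adjusted p = 0.0043), and its call held in every alternative. The long non-coding RNA gene AT2G05705, below the count set for naming and chosen after its values were seen, had 0.0258, 0 and 0.0804 CPM in spt16-2 and 0.0272, 0 and 0.0504 CPM in ssrp1-2, against 2.49, 0.462 and 1.05 CPM in Col-0 (log2 fold change −5.33 ± 0.75, adjusted p = 0.008). In both non-coding genes the FACT libraries lay below all Col-0 libraries, which the naming rule required of AT2G01422. AT2G05705 lost the call without Col-0 replicate 1. Among protein-coding genes, GRP3S (AT2G05380), a glycine-rich protein gene, had 26.1, 22.1 and 42.8 CPM in spt16-2 and 20.7, 24.8 and 16.7 CPM in ssrp1-2, against 48.3, 69.4 and 69.5 CPM in Col-0 (log2 fold change −1.32 ± 0.20, adjusted p = 0.012). Replicate 3 of spt16-2 was the highest FACT library there and lay below Col-0, as the rule for naming GRP3S required.

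XTH19 (AT4G30290), whose product remodels xyloglucan in growing walls, had 0.413, 0.539 and 0.563 CPM in spt16-2 and 0.245, 0.493 and 0.101 CPM in ssrp1-2, against 3.39, 0.981 and 0.806 CPM in Col-0 (log2 fold change −2.19 ± 0.45, adjusted p = 0.048). ACS4 (AT2G22810), an auxin-inducible enzyme of ethylene synthesis, had 2.89, 1.59 and 3.35 CPM in spt16-2 and 1.69, 1.04 and 1.66 CPM in ssrp1-2, against 8.72, 3.41 and 5.0 CPM in Col-0 (log2 fold change −1.54 ± 0.30, adjusted p = 0.033). In both genes Col-0 replicate 1 was the highest of the 9 libraries, and both calls were lost without it. The remaining genes with the largest falls were AT3G05955 (−2.06 ± 0.36), AT3G05727 (−1.33 ± 0.25), AT2G12190 (−1.29 ± 0.26), AT1G23935 (−1.1 ± 0.22), AT4G16146 (−0.89 ± 0.17) and AT4G21445 (−0.85 ± 0.14), with adjusted p from 0.01 to 0.047 by edgeR's test. FBP (AT1G43670), the cytosolic fructose-bisphosphatase of sucrose synthesis, was the most abundant of the 26, with 224, 214 and 237 CPM in spt16-2 and 238, 239 and 245 CPM in ssrp1-2, against 426, 293 and 339 CPM in Col-0 (log2 fold change −0.60 ± 0.12, adjusted p = 0.046). HAT2 (AT5G47370), an auxin-induced homeobox gene, had −0.67 ± 0.12 (adjusted p = 0.025). All of these genes but AT2G01422 lost the call in at least 1 fit that left out a single library, and GRP3S lost it without Col-0 replicates 2 or 3 (adjusted p up to 0.074).

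Of 396 tested list entries 15 were called, 14 higher and 1 lower, against 0.474% and 0.127% of all tested genes, and in 17 of the 24 lists edgeR called no member. Genes of auxin response had a median of −0.49, with 19 of 21 tested members below 0 and 9 of them lower at an unadjusted p under 0.05, against 4.84% of all tested genes. IAA29 (AT4G32280), an auxin-induced repressor of auxin response, had 1.31, 1.54 and 1.74 CPM in spt16-2 and 1.5, 0.575 and 1.39 CPM in ssrp1-2, against 6.88, 3.87 and 2.93 CPM in Col-0 (log2 fold change −1.77 ± 0.37, adjusted p = 0.05), just short of the threshold, and was called in 7 of its 20 alternatives. Wounding, touch and rapid stress genes had a median of −0.83 over 15 tested members, which became 0.19 without Col-0 replicate 2, and their summed level ran from 138 to 571 CPM in spt16-2, from 136 to 575 CPM in ssrp1-2 and from 138 to 712 CPM in Col-0. Jasmonate and ethylene defence genes had a median of −0.52 and a mean of −0.98 over 20 tested members. Their median was −0.87 in spt16-2 and −0.06 in ssrp1-2, so the pooled median describes neither mutant. The defensin gene PDF1.2 (AT5G44420) shows their spread, with 16.7, 15.4 and 56.9 CPM in spt16-2 and 24.9, 21.9 and 16.2 CPM in ssrp1-2, against 752, 258 and 27.4 CPM in Col-0 (edgeR log2 fold change −3.79 ± 0.94, adjusted p = 0.16). Col-0 alone spans most of that range. PR4 (AT3G04720), another defence gene, had −1.31 ± 0.28 (adjusted p = 0.078).

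Abscisic acid, drought and cold genes had a median of −0.27 over 22 tested members, among them COR15A (AT2G42540, −0.91 ± 0.19, adjusted p = 0.055) and COR47 (AT1G20440, −0.66 ± 0.15, adjusted p = 0.085), which protect cells in the cold. Of 17 circadian clock genes, PRR3 (AT5G60100), an evening gene, came closest, with −0.78 ± 0.17 (adjusted p = 0.058). Photosynthesis genes had a median of −0.15 with values from −0.44 to 0.05 over 30 members. The medians were −0.14 for salicylic acid defence (19 tested), 0.15 for flavonoid genes (20), 0.06 for aliphatic glucosinolates (15), 0.19 for the cell cycle and DNA replication (22) and −0.07 for the clock. Lists of the transcription machinery also lay close to 0. They had medians of 0.09 for transcript elongation factors (17 tested), 0.07 for H2A.Z genes and the SWR1 and INO80 remodellers (16), 0.08 for Polycomb and trithorax genes (18), −0.04 for core histones (28) and −0.01 for FACT and other histone chaperones (16), and SSRP1 was the only gene called in these 5 lists. Root markers summed to 94.95 to 114 CPM in spt16-2 and 83.0 to 134 CPM in ssrp1-2, against 114 to 150 CPM in Col-0, with 6 of 11 tested and none called. Of 15 seed maturation genes only the dormancy gene DOG1 was tested and it was not called.

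**Figure D4:**
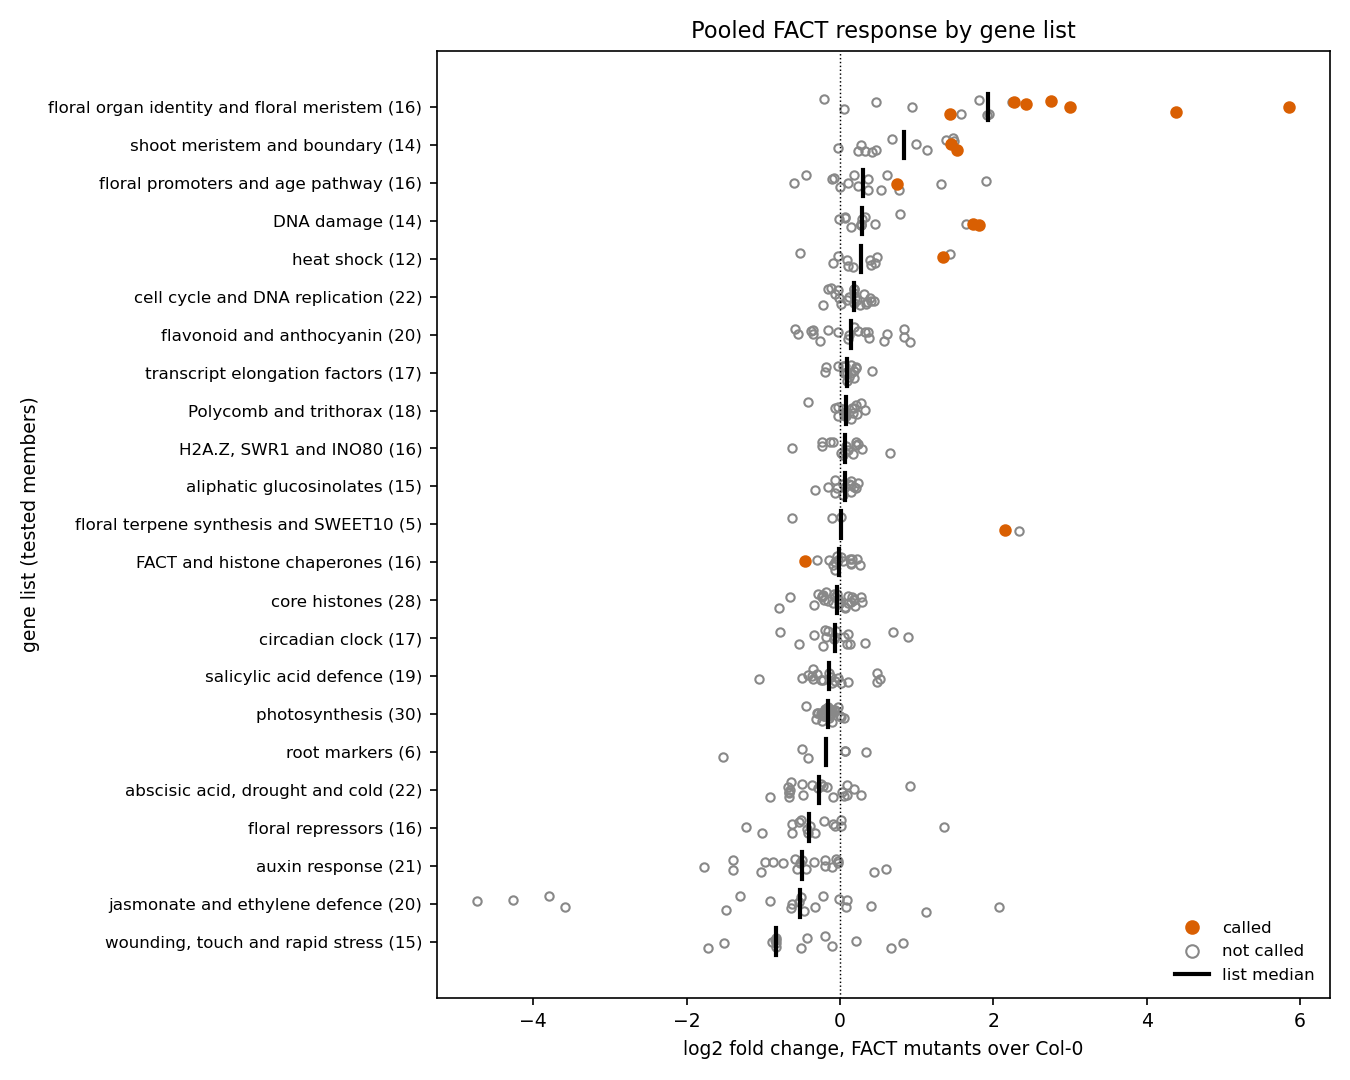
Each circle is a tested list member at its pooled log2 fold change, FACT mutants over Col-0, filled where called, and black bars are list medians. Lists are ordered by median from floral organ identity (1.93) to wounding, touch and rapid stress (−0.83), and the numbers beside the names are tested members. The seed maturation list, with 1 tested member, is left out.

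The pooled mean covers genes at which the subunit mutants differed from each other. Set against each other with no Col-0 library in the contrast, spt16-2 was higher than ssrp1-2 at 11 genes (0.0537% of those tested) and lower at 3 (0.0147%), 14 in all (0.0684%), with 619 genes at an unadjusted p under 0.05 (3.02%). Same-numbered libraries of the mutants deviated together, and with the replicate block the counts were 13 higher and 7 lower. With library totals in place of TMM they were 13 and 1. Of the 123 genes of the pooled response 5 were among the 14, and 48 had an unadjusted p under 0.05 between the mutants (39.0%), 44 of the 97 higher genes (45.4%) and 4 of the 26 lower genes (15.4%). The pooled test uses the same estimate of each gene's spread. Genes with a low estimate are favoured by each test, so these shares partly restate the choice of genes. Against Col-0, which both comparisons share, spt16-2 had 77 higher (0.376%) and 9 lower genes (0.0440%), 86 in all (0.420%), and ssrp1-2 had 93 higher (0.454%) and 21 lower (0.103%), 114 in all (0.557%). Replicate numbers also paired spt16-2 with Col-0, and with the replicate block spt16-2 had 92 higher and 25 lower genes. Leaving out any single library of the mutants gave 3 to 6 higher genes and 1 lower gene between them, so the list of 14 depends on all 6.

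SSRP1 had the smallest adjusted p between the mutants, at 52.0 ± 4.4 CPM in spt16-2 and 19.4 ± 1.4 CPM in ssrp1-2 (SD, n = 3 each, log2 fold change 1.42 ± 0.11, adjusted p = 0.00014). AT2G18193, a P-loop ATPase gene, had 9.57, 9.54 and 7.24 CPM in spt16-2 and 0.953, 1.177 and 0.605 CPM in ssrp1-2 (log2 fold change 3.27 ± 0.37, adjusted p = 0.0037), and Col-0 held 0.322, 0.635 and 0.322 CPM. AT5G60250, a RING finger gene, had 9.67, 9.42 and 8.41 CPM in spt16-2 and 3.08, 3.17 and 2.72 CPM in ssrp1-2 (log2 fold change 1.62 ± 0.18, adjusted p = 0.0037), and Col-0 held 0.907, 1.3 and 0.752 CPM. AT5G60250 stood above Col-0 in both mutants, and it was the gene with the smallest adjusted p of the pooled response (9.8e-05). At AT2G18193 the pooled rise came from spt16-2, with 1 library of ssrp1-2 inside the Col-0 range. These 3 genes kept the difference in every alternative.

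The other genes higher in spt16-2 included AT2G04050, a MATE efflux gene (2.99, 3.75 and 3.03 CPM in spt16-2 and 0.191, 0.410 and 0.630 CPM in ssrp1-2, log2 fold change 2.97 ± 0.40, adjusted p = 0.013). Named after their values were seen, NUC-L2 (AT3G18610), a nucleolin gene, had 3.94 ± 0.805 CPM in spt16-2 and 0.906 ± 0.227 CPM in ssrp1-2 (SD, n = 3 each), and ERD2 (AT1G56410), an Hsp70 gene, had 2.01, 1.89 and 0.911 CPM in spt16-2 and 0 counts in all ssrp1-2 and Col-0 libraries. Lower in spt16-2 were AT3G26460 (log2 fold change −2.62 ± 0.32, adjusted p = 0.007), G6PD3 (AT1G24280, log2 fold change −1.3 ± 0.18, adjusted p = 0.016), a glucose-6-phosphate dehydrogenase gene that overlaps the tested gene AT1G24290, and UBC11 (AT3G08690, log2 fold change −0.94 ± 0.14, adjusted p = 0.021), a ubiquitin-conjugating enzyme. AT3G26460, a lipid-binding protein gene, had 1.57, 0.907 and 0.831 CPM in spt16-2 and 6.53, 9.14 and 4.79 CPM in ssrp1-2, and Col-0 held 0.410, 0.491 and 0.564 CPM, so both mutants lay above Col-0 by unequal amounts. AT2G04050, NUC-L2, ERD2, AT3G26460, G6PD3, UBC11 and NAC044 lost the call in at least 1 fit that left out a mutant library.

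**Figure D5:**
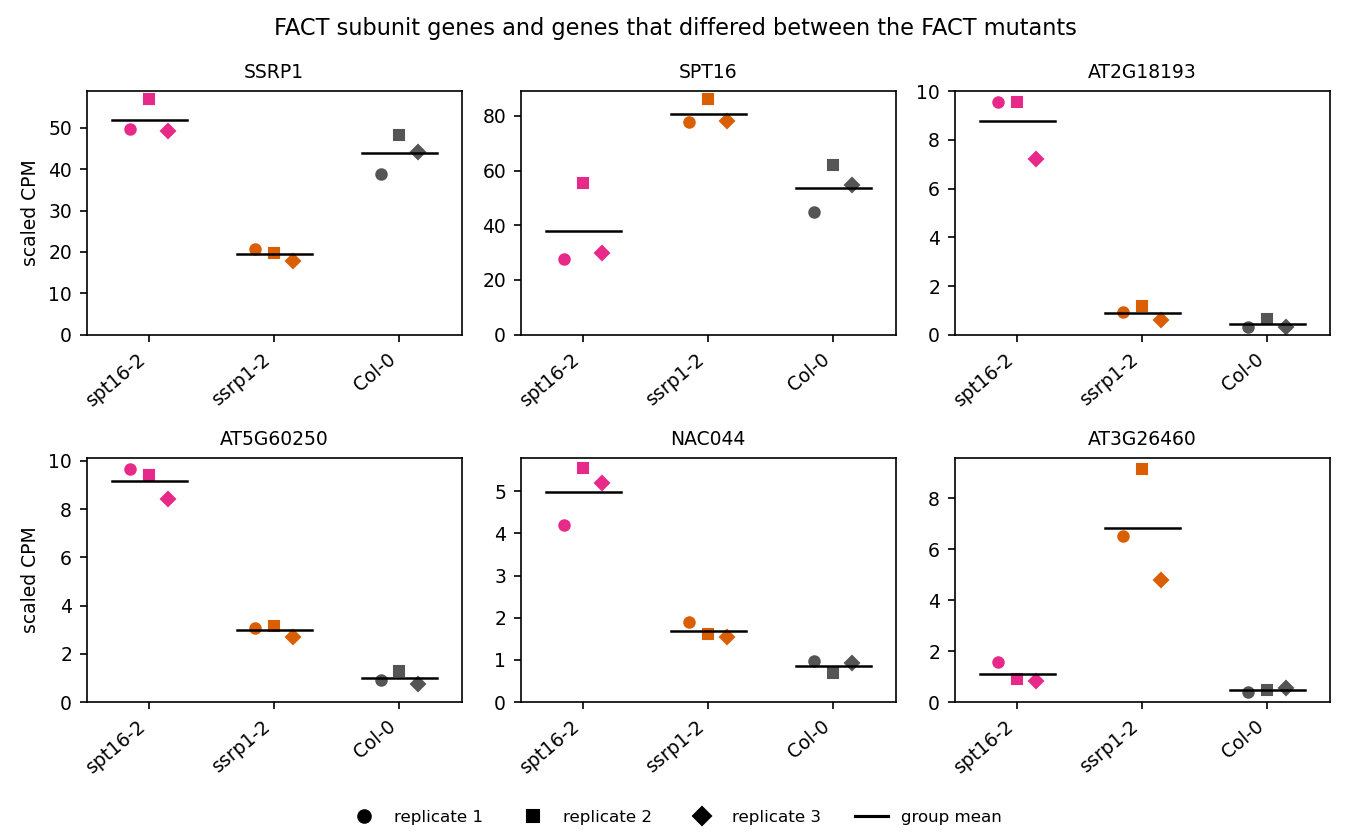
Scaled CPM in each library of spt16-2, ssrp1-2 and Col-0 for the subunit genes and 4 genes that differed between the mutants, with each axis from 0 and black lines at group means. SPT16 in spt16-2 replicate 2 lies at 55.4 CPM, within the Col-0 range, and AT3G26460 is the only panel of the 4 in which ssrp1-2 lies above spt16-2.

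The Pol II mutant gave a reference level for the called genes in another transcription mutant. Over all tested genes the FACT mutants were higher than nrpb2-3 at 3070 genes (15.0%) and lower at 3198 (15.6%). With library totals in place of TMM these counts were 905 and 10675, as the median of all genes then lay at −0.49 in place of −0.04. Both contrasts use the same FACT libraries, so the next counts partly restate how the genes were chosen and are no separate support. A gene not called in this contrast is not thereby shown to change in nrpb2-3. Of the 97 genes higher in the FACT mutants than in Col-0, 38 were higher than in nrpb2-3 too, 24 were lower and 35 were not called. Of the 26 lower genes, 4 were higher, 12 were lower and 10 were not called. The floral identity genes were in the first group: AP1 held 0.0205, 0 and 0 CPM, SEP1 0.102, 0 and 0.0170 CPM, AP3 0.0615, 0.0973 and 0.0341 CPM and SEP2 0, 0.0584 and 0.0511 CPM in nrpb2-3, and all 7 were called higher in the FACT mutants than there. SWEET10 (0.0410, 0.0778 and 0.0681 CPM in nrpb2-3) and HSP18.2 (1.99, 2.88 and 2.3 CPM) were as well. STM and GMI1 had the opposite sign in that contrast, being lower in the FACT mutants than in nrpb2-3. Every nrpb2-3 library also lay above every Col-0 library at both genes, and nrpb2-3 was not tested against Col-0. GMI1 held 14.2, 14.5 and 14.7 CPM in nrpb2-3, above every FACT library (log2 fold change −1.07 ± 0.22, adjusted p = 0.0031, FACT mutants over nrpb2-3). STM held 16.0, 18.0 and 14.9 CPM in nrpb2-3, where the highest ssrp1-2 library lay inside the range (log2 fold change −0.65 ± 0.18, adjusted p = 0.013). AT1G67105 held 80.0, 57.5 and 112 CPM and AT5G45095 24.0, 19.0 and 11.2 CPM in nrpb2-3, and both were called lower in the FACT mutants than there.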

How the data were processed

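RNA-seq counts per gene of 12 libraries were used as deposited. Per the submitters' processing notes the authors trimmed reads with fastp 0.23.4 and aligned them with HISAT2 2.2.1 to TAIR10, and the counting tool and its strand setting are not given in the sources used here. The authors also deposited a scaled TPM table, treated as a signal because its column sums ran from 652500 to 1181500, which served as an alternative only, as log2(value + 1). Gene names came from TAIR10.1, which held 32548 of 32833 loci; the 285 others were 152 mitochondrial and 133 chloroplast genes.

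Counts were filtered with filterByExpr (minimum count 10), scaled by TMM and fitted with edgeR 4.0.16 (quasi-likelihood, robust) in R 4.3.3 on all 12 libraries, with Benjamini-Hochberg adjustment over 20471 genes and calls at 0.05. The 6 FACT libraries entered as the mean of both genotype means. DESeq2 1.42.0 and limma 3.58.1 gave alternatives. Only the edgeR fit of the FACT mutants against Col-0 was tried on simulated data. Genes were named as the subunit genes and as the 10 largest called changes in each direction with no overlap and a mean of at least 50 counts. Up to 4 called members of each list were also named. Between the mutants, up to 5 called genes in each direction were named, those with the smallest adjusted p and a mean of at least 50 counts. Other names are marked as chosen after their values were seen. The members and the 24 lists were chosen with earlier results of these data known. Counting intervals and floors of 3 counts cover counting error only. Replicate numbers were checked for pairing by correlating deviations from group means, with a threshold of 0.1. They paired spt16-2 with ssrp1-2 (0.29, 0.46 and 0.40), spt16-2 with Col-0 (0.20, 0.48 and 0.47) and the FACT mutants with nrpb2-3 (0.22 to 0.41). They did not pair ssrp1-2 with Col-0 (−0.02, 0.53 and 0.37), nor therefore the pooled FACT mutants with Col-0.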

Additional observations from a re-analysis of the deposited data

Results flagged for a closer look

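In 4 of 67 genes looked at, 1 of the 6 FACT libraries lay far from the other 5 by Dixon's criterion, which chance meets in about 1 of 20 groups. GRP3S was at 42.8 CPM in spt16-2 replicate 3, and the defensin gene PDF1.2 was at 56.9 CPM in spt16-2 replicate 3. IAA29 was at 0.575 CPM in ssrp1-2 replicate 2, and VSP1, a vegetative storage protein gene induced by jasmonate, was at 430 CPM in ssrp1-2 replicate 2.

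The mutants differed from each other at 14 genes by edgeR's test of the difference itself, given here as log2 fold changes of spt16-2 over ssrp1-2. Higher in spt16-2 were SSRP1 (1.42), AT2G18193 (3.27), AT5G60250 (1.62), NAC044 (1.56), AT2G04050 (2.97), NUC-L2 (2.11), AT1G52100 (2.1), AT2G01008 (2.44), AT3G41762 (3.08) and AT1G17960 (4.98). ERD2 had a fitted value of 9.05, which depends on the prior count because no ssrp1-2 library held a count. Lower in spt16-2 were AT3G26460 (−2.62), G6PD3 (−1.30) and UBC11 (−0.94). The calls of all 14 held with the replicate block.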

How the results depend on the processing

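Of the 123 genes called in the FACT mutants against Col-0, all kept their direction in every alternative that tested them, 16 held the call in all 20 alternatives, 35 lost it in 1 to 3 and 72 in more. Counts follow as higher and lower. For the FACT mutants against Col-0, DESeq2 gave 262 and 123, library totals 8 lower, a 2-fold minimum 9 lower, and leaving out 1 library 39 to 69 higher and 6 to 22 lower. Without both Col-0 replicate 1 and spt16-2 replicate 2 they were 19 and 4. For spt16-2 against ssrp1-2, DESeq2 gave 39 and 15, libraries of the groups compared only 17 and 5, library totals 1 lower, and leaving out 1 library 3 to 6 higher and 1 lower. For spt16-2 against Col-0, DESeq2 gave 187 and 59, limma on the scaled TPM 51 and 5, library totals 3 lower, and leaving out 1 library 31 to 37 higher and 0 to 5 lower. Only the groups compared gave 42 and 0 there by edgeR, with 1318 genes at an unadjusted p under 0.05 in either direction. For ssrp1-2 against Col-0, DESeq2 gave 221 and 91, limma 13 lower, library totals 8 lower, only the groups compared 34 and 3, and leaving out 1 library 38 to 53 higher and 1 to 16 lower. The FACT mutants against nrpb2-3 gave 905 and 10675 with library totals, and leaving out 1 library 2099 to 3192 higher and 1721 to 3060 lower, the lowest without nrpb2-3 replicate 3. The cause was not tested.

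With the replicate block the counts were 179 and 88 for the FACT mutants against Col-0, 143 and 49 for ssrp1-2, 25 lower for spt16-2, and 7 lower for spt16-2 against ssrp1-2. The 123 and the 14 called genes all kept their call with the block. For the pooled mutants and ssrp1-2 against Col-0 the numbers did not pair every library, as replicate 1 of ssrp1-2 and Col-0 fell short, and 9 of 9 libraries correlated best with a library of their own number, a hint from the data. FT reversed to −0.02 without Col-0 replicate 2 and reached 0.54 without Col-0 replicate 3. SPT16 reached 0.15 without Col-0 replicate 2 and reversed to −0.16 without spt16-2 replicate 2, −0.08 without Col-0 replicate 1, −0.27 without both and −0.09 with a gene length trend removed, a correction chosen after seeing the data. Medians of floral organ genes were 1.2 under limma and 2.37 without Col-0 replicate 3, and of shoot meristem genes 0.37 and 0.62 under limma and without both libraries. Changes of genes near silence are limited by counts at this depth.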
